A study of Caenorhabditis elegans with 3 samples.

Results

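The genes described here are the numbered uba, ubc, uev, cul, skr and rbx genes of Caenorhabditis elegans, which encode the enzymes that conjugate ubiquitin and ubiquitin-like proteins and the core parts of cullin ubiquitin ligases. The rule that picks them reads gene symbols and no measured value, and 55 of the 20392 genes in the deposited table carried such a symbol: 3 uba, 21 ubc, 3 uev, 6 cul, 20 skr and 2 rbx genes. The series held 1 group, wild-type worms of the N2 Bristol strain without any added treatment. Whole worms were grown at 25 °C on the bacterial strain OP50 and taken at 29 h, in the middle of the fourth larval stage, in 3 libraries that the submitters describe as independent. RNA was sequenced after ribosomal RNA depletion, and the values are TPM, a transcript abundance scaled by transcript length and by library total that can be compared between genes.

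Ubiquitin is activated by an E1 enzyme, passed to an E2 conjugating enzyme and attached to a substrate with the help of an E3 ligase. The small proteins SUMO, NEDD8 and UFM1 each have their own E1 and E2. Cullin ligases are E3 ligases in which a cullin scaffold binds a RING subunit (rbx genes) that recruits the E2, and an adaptor that holds the substrate receptor. In the SCF type the adaptor is a Skp1-related protein (skr genes) and the receptor an F-box protein, and attachment of NEDD8 to the cullin activates the ligase. In C. elegans these ligases are known for roles in cell cycle exit, meiosis, early embryonic divisions, molting and the response to intracellular infection.

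The conjugation and cullin genes were mostly of moderate abundance and steady between libraries, and most of those below the detection limit belonged to the skr family. A gene counted as detected when each of the 3 libraries had at least 1 TPM. By this limit 42 of the 55 members (76.4%) were detected, beside 61.1% of all genes. The median log2(TPM + 1) of the 55 members was 3.71, 3.63 and 3.76 in replicates 1, 2 and 3, against 2.18, 2.12 and 2.08 for all 20392 genes. Mean TPM placed 39 members above the median of all genes and 26 above the upper quartile. The members together held 0.112% ± 0.00260 of all TPM (SD, n = 3). The share was 0.253% of a total without the 100 most abundant genes. None of the members had the same TPM as another gene in all libraries at values above 0, and 5 of them were listed at 0 in every library. No test between groups is possible in 1 group. An exact two-sided sign-flip permutation test of 2 genes over the 3 libraries cannot go below p = 0.25, so differences between genes are given with the spread over libraries and without a p-value.

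**Figure D1:**
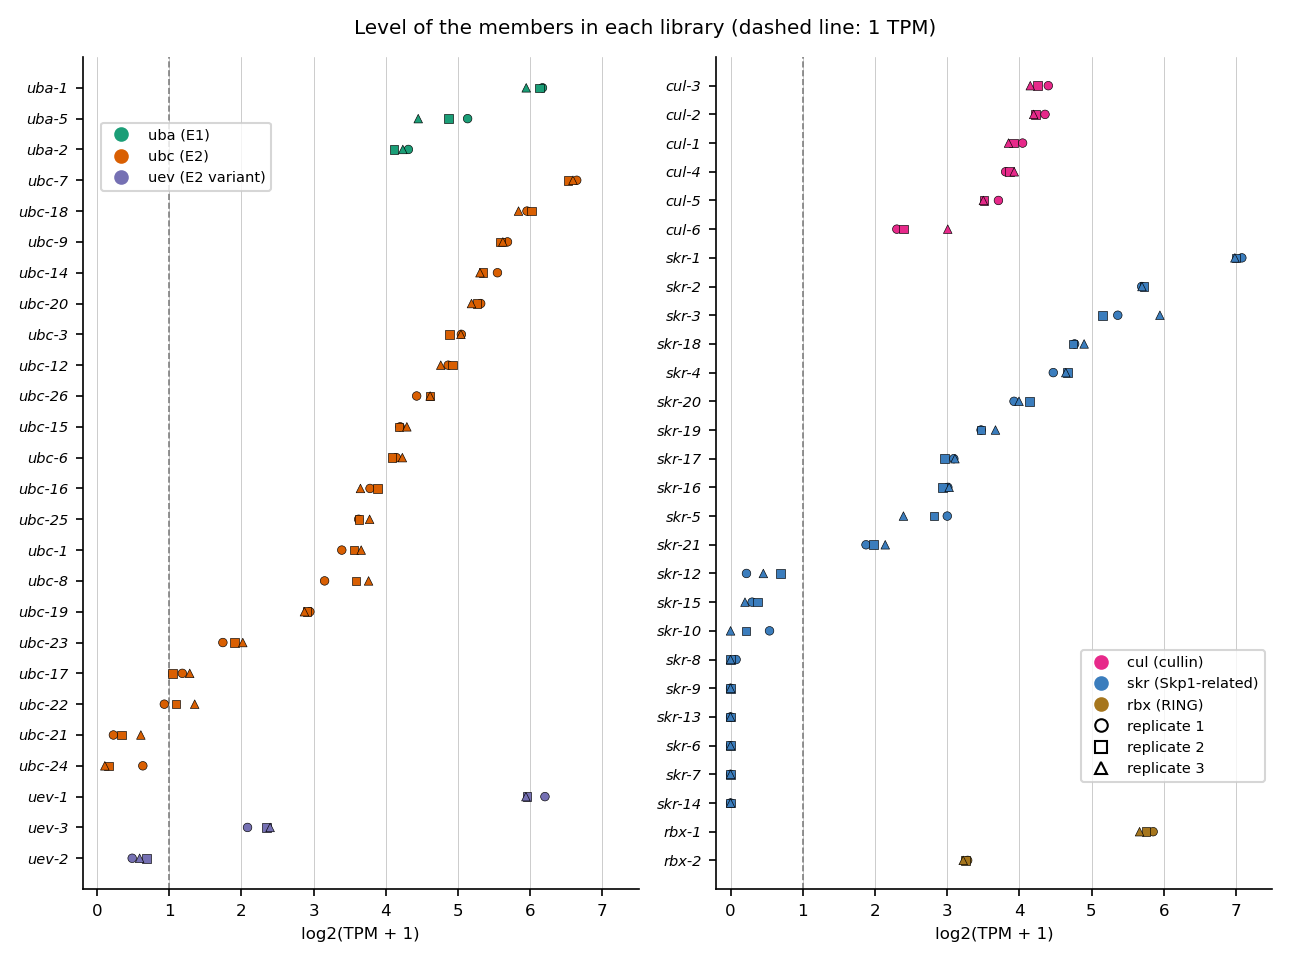
Level of the members as log2(TPM + 1), with 1 symbol per library (circle, replicate 1; square, replicate 2; triangle, replicate 3) and 1 colour per class; the dashed line marks 1 TPM. The skr family runs from 129 TPM for skr-1 down to 5 genes listed at 0, while all 6 cullins and both RING genes lie to the right of the line.

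Whole-larva markers framed these values. Marker lists of body wall muscle (7 of 7 genes), intestine (7 of 7 matched), neurons (8 of 8) and germ line (8 of 8) were detected in full. So was the list of oocyte genes (8 of 8), whereas 0 of 7 early embryonic and 0 of 6 male neuron genes were detected. Sperm and cuticle genes differed between libraries. The summed level of 22 sperm markers was 1647, 676 and 394 TPM in replicates 1, 2 and 3, and all 21 detected ones were highest in replicate 1. Of 7 detected epidermis and cuticle markers, 6 were highest in replicate 1 and col-117 was highest in replicate 3, and because col-117 dominates the sum, the list summed to 1750, 2127 and 2620 TPM. In RNA from whole worms, fewer cells of a type and less RNA per cell cannot be told apart.

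The 3 uba genes, which encode E1 enzymes or subunits, were all detected, and the ubiquitin E1 stood highest. The gene uba-1 (WBGene00006699, WBcel235 chromosome IV, 9989671 to 9994945), which encodes the ubiquitin-activating enzyme at the head of the cascade, had 71.0, 68.9 and 60.6 TPM in replicates 1, 2 and 3. The gene uba-5 (chromosome I, 3873444 to 3875997), which encodes the E1 of UFM1, had 34.1, 28.1 and 20.8 TPM. The gene uba-2 (chromosome I, 12741588 to 12749562), which encodes a subunit of the SUMO E1, had 18.9, 16.3 and 17.8 TPM. The 3 genes did not overlap in any library value, and uba-1 was the highest in all 3 libraries. The level of uba-5 was 0.411 ± 0.0681 of that of uba-1 (SD, n = 3), and that of uba-2 was 0.266 ± 0.0286.

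Most ubc genes, which encode E2 enzymes, were detected (18 of 21), with means from 0.247 to 95.1 TPM. The highest was ubc-7 (chromosome III, 9630097 to 9631167), related to human UBE2G1, with 99.0, 90.9 and 95.5 TPM. It was followed by ubc-18 (chromosome III, 7067686 to 7068570), related to human UBE2L3, with 61.0, 64.0 and 56.2 TPM. The gene ubc-9 (chromosome IV, 4651044 to 4652447), the E2 of SUMO, had 50.4, 47.1 and 48.2 TPM. These 3 genes did not overlap with each other or with any ubc gene below them. The gene ubc-14, related to human UBE2G2 of endoplasmic reticulum-associated degradation, had 45.7, 39.7 and 38.5 TPM. The gene ubc-20, related to human UBE2K, had 38.8, 37.4 and 35.4 TPM, within the range of ubc-14 at its upper end. The gene ubc-3, which encodes the Cdc34-related E2 of SCF ligases, had 32.0, 28.6 and 31.9 TPM. It overlapped with ubc-12, the E2 of NEDD8, which averaged 27.9 ± 1.64 TPM (SD, n = 3).

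The middle of the ubc order was crowded. The genes ubc-26, ubc-15, ubc-6, ubc-16, ubc-25, ubc-1, ubc-8 and ubc-19 had means between 6.51 and 22.5 TPM. Among the 20 pairs of neighbours in the order of the whole ubc family, 9 pairs overlapped in their library values. In this middle stretch ubc-15 and ubc-6 overlapped at 17.7 ± 0.758 and 16.8 ± 0.894 TPM (SD, n = 3), although ubc-15 was the higher gene in 3 of 3 libraries. The genes ubc-16, ubc-25, ubc-1 and ubc-8 likewise overlapped in turn, at means of 12.7, 11.8, 10.6 and 10.5 TPM, where ubc-1 encodes the Rad6-related E2.

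All 4 X-linked ubc genes were weak. The gene ubc-23 had 2.35, 2.74 and 3.05 TPM in replicates 1, 2 and 3. The gene ubc-17 had 1.27, 1.07 and 1.43 TPM, the lowest level of any detected member. The gene ubc-22 had 0.907, 1.14 and 1.55 TPM and missed detection in replicate 1 alone. Of these, ubc-17 and ubc-22 overlapped, and ubc-23 was above both in all libraries. The gene ubc-21 had 0.170, 0.263 and 0.522 TPM, and lies 462 nt from ubc-22 on the opposite strand. Among the 17 autosomal ubc genes only ubc-24 (chromosome II) was as low, with 0.551, 0.114 and 0.0771 TPM, or 0.0955 TPM on average without replicate 1. The next autosomal gene, ubc-19, averaged 6.51 ± 0.195 TPM. For comparison, 58.7% of all X-linked genes and 61.7% of all autosomal genes were detected, and the 3 X-linked skr genes were all detected. The 4 X-linked ubc genes had their highest value in replicate 3, beside 40.2% of all detected genes. Of these 4, ubc-21 and ubc-22 were not detected, and the X-linked skr-20 was highest in replicate 2.

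Of the E2 variants, which resemble E2 enzymes but lack the catalytic cysteine, uev-1 was abundant and uev-2 was not detected. The gene uev-1 (chromosome I, 14790244 to 14790934) had 72.7, 60.9 and 60.4 TPM. The gene uev-3 (chromosome I, 9310319 to 9312642), known from the DLK-1 kinase pathway of neurons, had 3.24, 4.08 and 4.27 TPM. The gene uev-2 (chromosome III, 5583125 to 5584522) had 0.401, 0.605 and 0.505 TPM. The 3 ranges were separate.

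All 6 cullin genes were detected, and 5 of them lay within a narrow band. The gene cul-3 (chromosome V, 177417 to 185172), the scaffold that binds BTB proteins such as the meiotic katanin regulator MEL-26, had 20.1, 18.0 and 16.8 TPM. The gene cul-2 (chromosome III, 13687269 to 13692683), which works with elongins B and C, had 19.5, 17.7 and 17.4 TPM. Their ranges overlapped, so cul-3 and cul-2 cannot be ordered. The gene cul-1 (chromosome III, 10471237 to 10475129), the SCF scaffold needed for cell cycle exit, had 15.5, 14.1 and 13.4 TPM. The gene cul-4 (chromosome II, 7302101 to 7305758), which works with DDB-1 and restrains DNA re-replication, had 13.0, 13.5 and 14.2 TPM and overlapped with cul-1. Both were below cul-2 and cul-3 in all libraries. The gene cul-5 (chromosome V, 10179535 to 10183154) had 12.1, 10.4 and 10.3 TPM. The gene cul-6 (chromosome IV, 12586485 to 12590451), known for its part in the response to intracellular pathogens, had 3.94, 4.26 and 7.05 TPM. The ranges of cul-5 and cul-6 were separate from all other cullins and from each other.

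The skr family held the most abundant member and most of the undetected ones. The gene skr-1 (chromosome I, 9471550 to 9472641), the main Skp1 adaptor of SCF ligases in C. elegans, had 134, 127 and 126 TPM. Its neighbour skr-2 (chromosome I, 9469654 to 9470637) lies 912 nt away on the same strand and had 50.8, 51.9 and 50.9 TPM. The level of skr-1 was 2.52 ± 0.111 times that of skr-2 (SD, n = 3), and skr-2 was the steadiest detected member, with a coefficient of variation of 1.20%. The gene skr-3 (chromosome V, 16121084 to 16122649), which acts with CUL-6 in the response to intracellular pathogens, had 40.2, 34.5 and 60.7 TPM, and overlapped with skr-2 only through replicate 3. The gene skr-18 had 26.2, 25.8 and 28.8 TPM. The gene skr-4, which has been placed with skr-3 beside CUL-6, had 21.2, 24.4 and 24.0 TPM. These 2 ranges were separate, with skr-18 above skr-4.

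A second stretch of the family lies on X, where skr-20, skr-19 and skr-21 sit within 3649 nt on the same strand. The gene skr-20 had 14.2, 16.6 and 14.9 TPM, skr-19 had 10.1, 10.1 and 11.7 TPM, and skr-21 had 2.67, 2.94 and 3.42 TPM. They kept this order in all 3 libraries with separate ranges. The genes skr-17 and skr-16 overlapped at means of 7.32 and 6.96 TPM, and skr-5, at 7.01, 6.06 and 4.26 TPM, overlapped with skr-16.

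The other 9 skr genes were not detected: skr-6, skr-7, skr-8, skr-9, skr-10, skr-12, skr-13, skr-14 and skr-15. Of these, skr-6, skr-7, skr-9, skr-13 and skr-14 were listed at 0 in all 3 libraries, as were 6.19% of all genes. The gene skr-8 was above 0 in replicate 1 alone, at 0.0545 TPM. The gene skr-10 had 0.454, 0.158 and 0 TPM, skr-12 had 0.165, 0.615 and 0.370 TPM, and skr-15 had 0.230, 0.296 and 0.149 TPM. Thus 11 of 20 skr genes (55.0%) were detected, beside 61.1% of all genes. A value of 0 in a TPM table can be a failed estimate, and reads of near-identical copies can be split among them or given to 1 of them.

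All 9 undetected skr genes lack annotated untranslated regions, and 6 of them lie beside another undetected skr gene. The neighbours skr-13, skr-9, skr-8 and skr-12 lie within 5696 nt on chromosome IV (17162097 to 17167792) with gaps of 957 to 1439 nt, and summed to 0.220, 0.615 and 0.370 TPM in replicates 1, 2 and 3. The genes skr-14 and skr-7 lie 851 nt apart on chromosome V (4421069 to 4423011), on opposite strands, and were both listed at 0. The genes skr-6, skr-10 and skr-15 have no other member within 10 kb, and detected skr genes also occur as neighbours on chromosomes I and X. Summing neighbours therefore brought neither of these loci to 1 TPM. In the annotation used, the longest transcript of 13 members consists of coding sequence alone, and all 13 are skr genes. Of these 13, 9 were not detected, and skr-16, skr-19, skr-20 and skr-21 were. All 7 skr genes with an annotated untranslated region were detected. Among all protein-coding genes, 81.6% of those without an annotated untranslated region and 30.8% of those with one were not detected. The annotation behind the deposited values is not known here and may differ in this respect.

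The 2 RING subunit genes were both detected, at different levels. The gene rbx-1 (chromosome V, 9689686 to 9690522), whose product is the RING subunit common to most cullin ligases, had 56.8, 53.0 and 49.8 TPM. The gene rbx-2 (chromosome I, 6420660 to 6421889) had 8.74, 8.53 and 8.34 TPM. The level of rbx-1 was 6.23 ± 0.266 times that of rbx-2 (SD, n = 3), and the ranges were separate.

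Set against their partners, the E1 genes had lower levels than the E2 and modifier genes of the same system in SUMO, NEDD8 and UFM1. In the SUMO system uba-2 was at 0.493 ± 0.0495 of the level of aos-1, which encodes the other E1 subunit (35.9 TPM), and ubc-9 was at 2.75 ± 0.114 times the level of uba-2. The modifier gene smo-1 had 195, 162 and 156 TPM. In the NEDD8 system rfl-1 and ula-1, which encode the E1 subunits, stood at a ratio of 0.949 ± 0.0457, and ubc-12 was at 1.75 ± 0.112 times the level of rfl-1. The modifier gene ned-8 had 67.2, 65.6 and 72.4 TPM. Thus the NEDD8 E1 subunit genes were near parity, while the SUMO E1 subunit genes were not. In the UFM1 system ufc-1, the E2 gene, was at 2.37 ± 0.221 times the level of uba-5, and ufm-1 had 112, 88.5 and 78.7 TPM. Ubiquitin itself was the most abundant modifier by far: ubq-2, which encodes ubiquitin fused to a ribosomal protein, had 3560, 3576 and 3427 TPM, and the polyubiquitin gene ubq-1 had 290, 325 and 284 TPM.

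**Figure D2:**
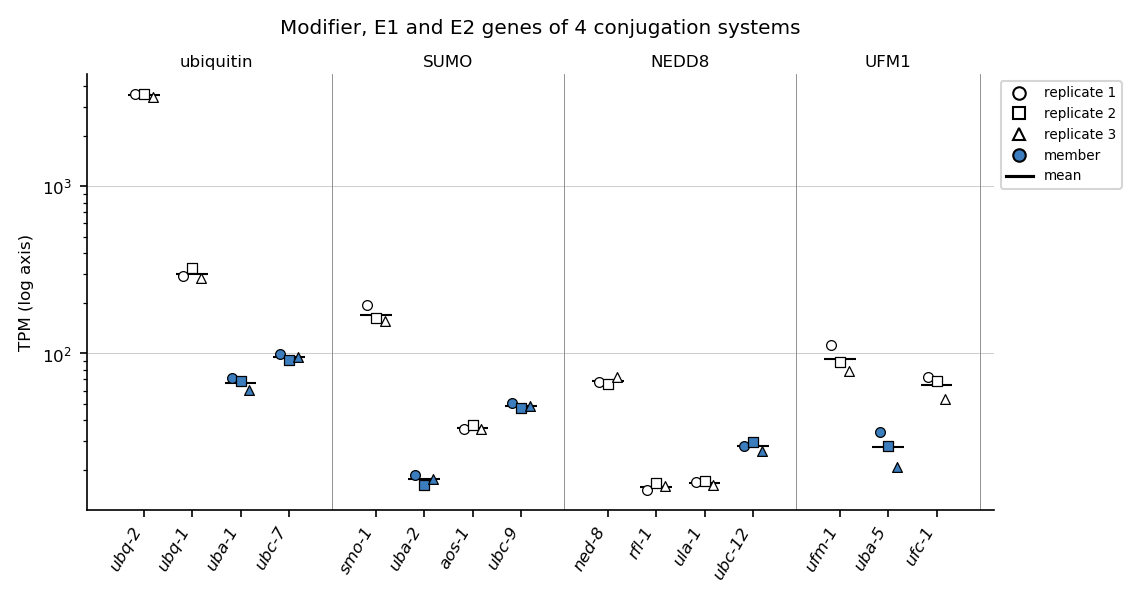
TPM on a log axis of the modifier, E1 and E2 genes of the ubiquitin, SUMO, NEDD8 and UFM1 systems, with 1 symbol per library, the mean as a bar, members filled and partner genes open. In the SUMO, NEDD8 and UFM1 systems the E1 genes sit lowest, at 16.0 TPM for rfl-1, 17.7 TPM for uba-2 and 27.7 TPM for uba-5.

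The adaptor genes skr-1, elc-1, ddb-1 and skr-3 exceeded cul-1, cul-2, cul-4 and cul-6 in that order. The level of skr-1, the highest of the skr genes, was 9.01 ± 0.348 times that of cul-1 (SD, n = 3). Weaker skr genes, such as skr-19 at a mean of 10.6 TPM, stood below cul-1 at 14.3 TPM. The elongin C gene elc-1 was at 3.49 ± 0.271 times the level of cul-2, and elb-1, the elongin B gene, was at 0.701 ± 0.0938 of elc-1. The gene ddb-1, the adaptor of CUL-4, was at 1.96 ± 0.0936 times the level of cul-4. The gene skr-3 was at 8.97 ± 1.10 times the level of cul-6. In each of these 4 cullin pairs the adaptor was the higher gene in 3 of 3 libraries. Of the other skr genes placed beside CUL-6, skr-4 was at 4.83 ± 1.25 times the level of cul-6, and skr-5 was at 1.78, 1.42 and 0.604 times its level in replicates 1, 2 and 3. Thus skr-5 was below cul-6 in replicate 3. CUL-3 differs in that BTB proteins serve as adaptor and receptor in 1 chain, and the BTB gene mel-26 was at 0.640 ± 0.108 of the level of cul-3. A second elongin C gene, elc-2, was not detected, at a mean of 0.441 TPM. RNA ratios are not protein ratios, which were not measured.

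**Figure D3:**
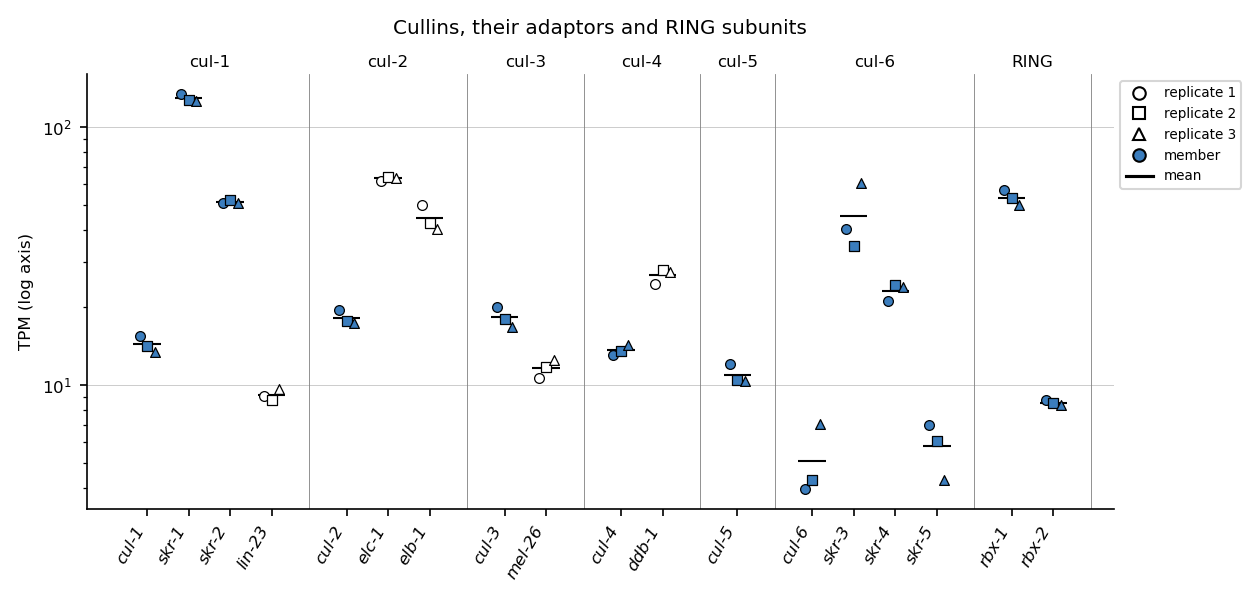
TPM on a log axis of cullins, their adaptors, selected receptors and RING subunits, grouped by cullin, with 1 symbol per library, the mean as a bar, members filled and partner genes open. The adaptors skr-1, elc-1, ddb-1 and skr-3 lie above cul-1, cul-2, cul-4 and cul-6 in every library.

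The partner genes listed for these pathways were nearly all detected, beside 61.1% of all genes. The lists are selections and do not cover whole families. All 8 genes of neddylation and cullin cycling were detected, from csn-4, a COP9 signalosome subunit gene, at 13.9 TPM to cand-1, the cullin exchange factor gene, at 31.4 TPM, with csn-2 next at 27.3 TPM. The 6 signalosome genes had a median coefficient of variation of 3.81%. All 14 listed substrate receptor genes were detected, with the F-box gene dre-1 (26.6 TPM) and fem-1 (25.9 TPM) highest and zif-1 lowest (3.25 TPM). The F-box genes fbxa-158 and fbxa-75, listed with the response to intracellular pathogens, were not detected, at means of 0.279 and 0.0418 TPM. The F-box gene lin-23, a partner of CUL-1 in cell cycle exit, averaged 9.17 TPM. Of the ligases of other classes, 18 of 18 matched genes were detected, led by the HECT ligase genes hecd-1 (46.6 TPM) and eel-1 (40.9 TPM) and ending with the neuronal ligase gene rpm-1 (5.33 TPM). All 8 listed E1 and E2 genes outside the chosen symbols were detected, among them the autophagy E2 genes atg-3 (74.3 TPM) and, lowest, atg-10 (2.11 TPM). The median log2(TPM + 1), as the mean over libraries with its SD, was 4.82 ± 0.34 for uba genes, 4.12 ± 0.05 for ubc genes and 2.28 ± 0.17 for uev genes. It was 3.90 ± 0.02 for cullins, 2.37 ± 0.09 for skr genes and 4.51 ± 0.06 for rbx genes. On the same scale it was 7.42 ± 0.17 for modifier genes, 4.68 ± 0.04 for the E1 and E2 genes outside the symbols and 4.21 ± 0.06 for neddylation and cullin cycling. It was 5.14 ± 0.04 for the adaptors elc-1, elc-2, elb-1 and ddb-1, 3.24 ± 0.11 for substrate receptors and 3.99 ± 0.01 for other ligases. All genes stood at 2.13 ± 0.05. With means in place of medians, ubc genes stood below cullins and uev genes above skr genes.

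Between libraries the detected members varied little. None of the 42 had a highest library at least 2-fold above its lowest, beside 15.4% of all detected genes. At 1.5-fold there were 5 of 42 (11.9%), beside 28.5% of all detected genes. The median coefficient of variation was 7.30% for the 42 members, against 12.1% for all detected genes, and 33 members lay below the median of all detected genes. The same held in direction among more abundant genes. Restricted to means of 10 TPM and above, the 32 members left had a median of 6.92%, against 10.2% for all genes, and 0 of 32 members reached 2-fold, beside 13.3% of all genes. The highest library of the 42 was replicate 1 for 18 members, replicate 2 for 7 and replicate 3 for 17, beside 39.8%, 20.0% and 40.2% of all detected genes.

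**Figure D4:**
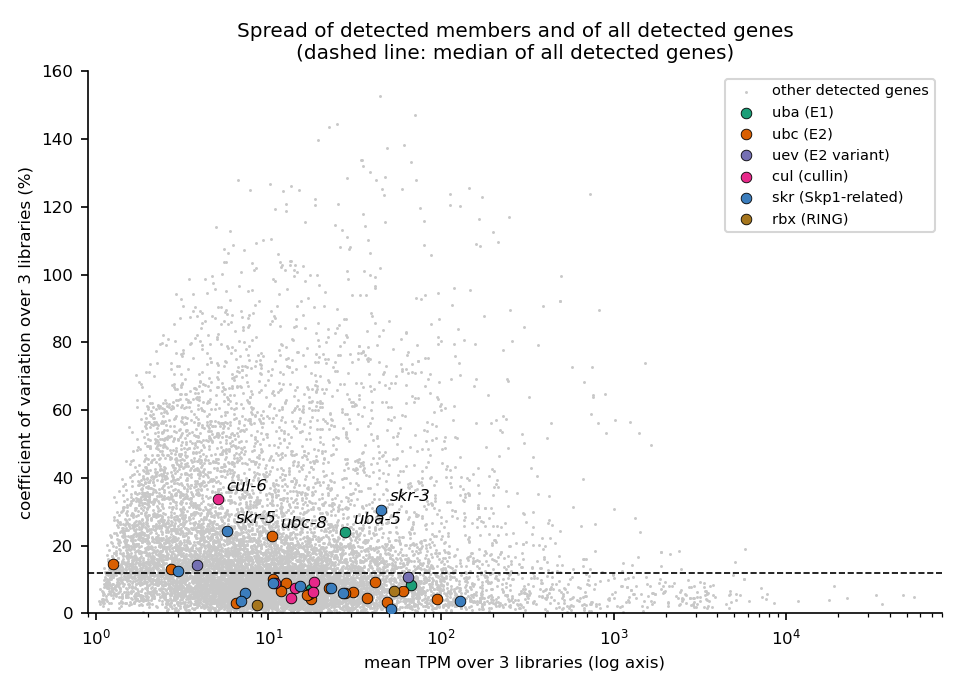
Coefficient of variation over 3 libraries (%) against mean TPM on a log axis for all 12454 detected genes (grey) and the 42 detected members (coloured by class); the dashed line is the median of all detected genes, 12.1%. Named members are the 5 with the largest values, led by cul-6 at 33.6% and skr-3 at 30.6%, and 33 members lie below the line.

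The 5 members that reached 1.5-fold were uba-5, ubc-8, cul-6, skr-3 and skr-5, and they did not share 1 pattern. Without replicate 1 the count was 2 (cul-6 and skr-3), beside 15% of all genes detected in the other libraries. Without replicate 2 it was 5, beside 24.7%, and without replicate 3 it was 0, beside 16.9%. The genes uba-5 and skr-5 were highest in replicate 1 and lowest in replicate 3. The other UFM1 genes shared this order. Beside 34.1, 28.1 and 20.8 TPM for uba-5, ufm-1 had 112, 88.5 and 78.7 TPM and ufc-1 had 72.4, 68.8 and 53.1 TPM. This order was not particular to them, since uba-1, uev-1, cul-1, cul-2, cul-3, cul-5, skr-1, rbx-1 and rbx-2 also had it. Replicate 1 was the highest library for 39.8% of all detected genes. The F-box gene dre-1, which acts in developmental timing and molting, had 32.9, 26.6 and 20.3 TPM. Among the markers, all 21 detected sperm genes and 6 of 7 detected epidermis and cuticle genes were also highest in replicate 1. Their part in the levels of uba-5 and skr-5 was not tested.

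The genes cul-6 and skr-3 were highest in replicate 3, at 7.05 TPM for cul-6 and 60.7 TPM for skr-3, with the other libraries at 3.94 and 4.26 TPM for cul-6 and at 40.2 and 34.5 TPM for skr-3. The genes skr-4 and skr-5, placed in the same response, did not follow, since skr-4 lay between 21.2 and 24.4 TPM and skr-5 was lowest in replicate 3. Of 11 other genes of the response to intracellular pathogens, only its regulators pals-22 and pals-25 were detected, with 3.44, 3.43 and 4.11 TPM for pals-22 and 2.23, 3.27 and 4.01 TPM for pals-25. The strongly inducible gene pals-5 was listed at 0 in replicates 1 and 2 and had 0.0215 TPM in replicate 3. The 11 genes summed to 6.80, 8.43 and 9.95 TPM in replicates 1, 2 and 3, a sum that pals-22 and pals-25 dominate. The part of these 11 genes in the levels of cul-6 and skr-3 was not tested. The gene ubc-8, related to human UBE2H, had 7.88, 11.0 and 12.6 TPM, lowest in replicate 1.

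**Figure D5:**
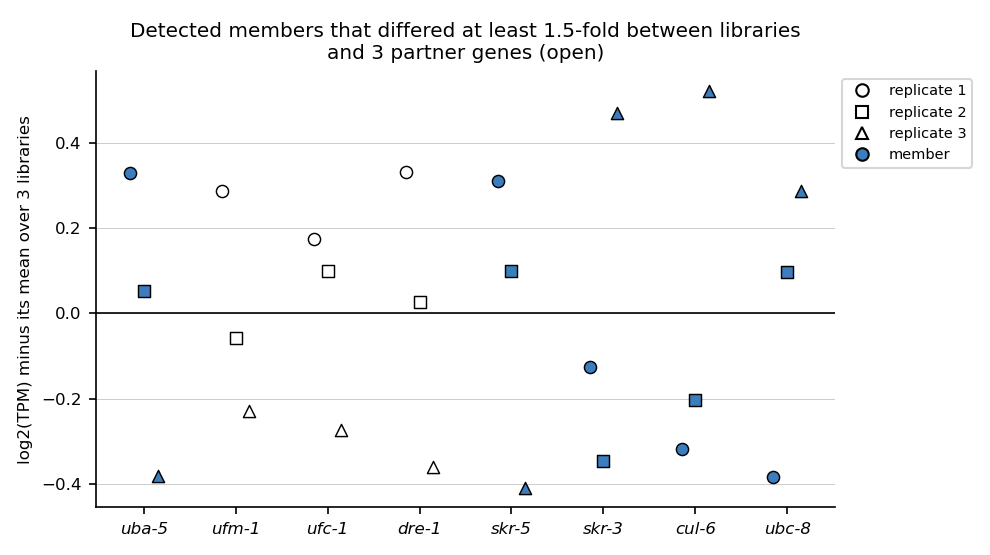
Deviation of log2(TPM) in each library from the mean over the 3 libraries, for the 5 detected members that differed at least 1.5-fold between libraries (filled) and the partner genes ufm-1, ufc-1 and dre-1 (open). In replicate 3, uba-5 and skr-5 lie at -0.38 and -0.41, and cul-6 and skr-3 lie at 0.52 and 0.47.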

How the data were processed

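The submitters' processing notes name kallisto, which assigns reads to annotated transcripts. Its version and index, the genome build, the annotation and how genes were summed are not stated there. The authors deposited TPM per gene for each of 3 libraries, each summing to 1000000, and a mean TPM, which was not used. TPM keeps no read count, so the depth is unknown and no interval or count model was used. The table's gene names were paired with WBcel235 genes through Ensembl release 115 (20133 of 20392, 98.7%), so positions and transcript lengths describe that annotation, and a RefSeq table settled shared symbols.

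Values were computed on TPM or on log2(TPM + 1) with Python 3.11.15, numpy 2.4.6 and pandas 2.3.3. Only the 2-fold call and the rescaling by median ratios were tested on simulated data. There is 1 group, so no test between groups was made. The rule for the members reads symbols alone, but it and the lists were chosen with earlier results of these data known. Values of some E2 genes are not reported here, though they are part of the counts and medians. All other members are named, with each library's value for the uba, uev, cul and rbx genes and for the highest, lowest and most variable ubc and skr genes. The highest and lowest genes of most, but not all, partner lists are also given, and atg-3 is not the highest of its list. The symbols ari-1, mms-21 and opt-2 matched no gene, and eel-1 and rbpl-1 were moved from the receptor to the other-ligase list after values were seen. Protein sequences were not used here, so the planned motif, identity and identity-based sums of skr copies were not computed.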

Additional observations from a re-analysis of the deposited data

How the results depend on the processing

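No paired analysis was possible because the series holds 1 group. Among 66 pairs of classes and lists, the order of the medians changed for 7 pairs with means, for 7 with genes of at least 1 TPM alone, for 2 without replicate 1 and for 0 under the other settings. With means, ubc genes stood below cullins and other ligases, and uev genes above skr genes. Adaptors then stood below uba, rbx and neddylation genes and below the E1 and E2 genes outside the symbols. With genes of at least 1 TPM alone, uev genes stood above skr genes, and both above cullins, receptors and other ligases. Without replicate 1, uba genes stood below the E1 and E2 genes outside the symbols (4.66 and 4.69) and uev genes above skr genes (2.37 and 2.33). As TPM holds no depth, what limits the weak genes cannot be given in counts. Medians of log2 values depend on the pseudocount by construction. With a pseudocount of 0.1 and of 5 they were 3.60 and 4.09 for all members, 4.04 and 4.42 for ubc and 1.98 and 3.15 for uev. They were 3.81 and 4.24 for cullins, 2.08 and 3.21 for skr and 4.42 and 4.81 for rbx. For E1 and E2 genes outside the symbols they were 4.63 and 4.90, and for neddylation and cullin cycling 4.14 and 4.49. For adaptors they were 5.10 and 5.30, for receptors 3.10 and 3.75, and for other ligases 3.91 and 4.32. With means in place of medians they were 3.28 for all members, 3.72 for ubc, 2.96 for uev, 3.75 for cullins, 8.02 for modifiers, 4.36 for neddylation and cullin cycling, 4.20 for adaptors, 3.41 for receptors and 3.96 for other ligases. With genes of at least 1 TPM alone they were 4.15 for all members, 4.19 for ubc, 4.15 for uev, 4.02 for skr and 5.49 for adaptors, so the low skr median rests on its undetected genes. At a detection limit of 5 TPM, 8037 of all genes were detected. At 1.5-fold, 5 members varied, against 0 at 2-fold. Leaving out a replicate, chosen after the data had been seen, gave 0 to 5 members at 1.5-fold, beside 15% to 24.7% of all detected genes. The members held 0.253% of TPM without the 100 most abundant genes and 0.163% without genes with a transcript under 300 nt, which also leaves out the members ubc-3 and ubc-15. Leaving out a replicate or rescaling by median ratios moved no level of 107 member and partner genes by more than its SD, which for a left-out replicate holds by construction in 3 libraries. Summing neighbouring skr genes, chosen after the data had been seen, gave 180 TPM for skr-1 and skr-2, 28.9 TPM for the X-linked genes and 0.401 TPM for the chromosome IV genes.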
